A study of Mus musculus with 2 samples.

Results

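Heat shock proteins and J-domain chaperones were followed in 2 mouse tumours. The genes were taken by name from the array annotation: heat shock factors 1 and 2 (Hsf1, Hsf2), the numbered members of the Hspa, Hspb, Hspd, Hspe, Hsp90, Dnaja, Dnajb and Dnajc families, and Bag3, without the relatives of the endoplasmic reticulum Hspa5, Dnajb9, Dnajb11 and Dnajc3. This gave 58 genes of 28785 genes or transcripts on the array, covered by 118 probes and 136 spots. Both tumours grew from RMS3, described in the labels only as a PRMS cell line with the abbreviation not spelled out. Tumour 2 and tumour 1 each came from 1000000 RMS3 cells in 200 µl PBS, injected under the skin of a male C57BL/6J mouse with no further genotype or agent named, and each was taken 2 weeks later. The treatment text speaks of metastatic tumours, whereas the other labels describe tumours at the injection site. Each tumour has 1 single-colour (Cy3) array and nothing serves as a control, so tumour 2 was set against tumour 1 with 1 tumour on each side and no test. The numbers of the tumours carry no order. RMS3 is a single line, so what both tumours share cannot be told apart from what is particular to that line.

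Heat shock proteins hold unfolded proteins, refold them or pass them on for breakdown, and many are induced when heat shock factor 1 binds repeated GAA units in their promoters. Hsp70 proteins work in a cycle of ATP binding and release: J-domain proteins bring substrates and start ATP hydrolysis, and Hsp110 and Bag proteins exchange the nucleotide. Hsp90 matures kinases and steroid receptors, the Hsp60 and Hsp10 chaperonin folds proteins in mitochondria, and small heat shock proteins hold proteins before they aggregate. In skeletal muscle, Hspb8 and Bag3 are known for clearing damaged proteins of the sarcomere.

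The binding element of the heat shock factor was looked for in RefSeq promoter windows of the GRCm38.p6 build, each from 250 bases before to 50 bases after a gene start, which 46 of the 58 genes have. The 12 without a window are Hsf1, Hsp90aa1, Hsp90ab1, Hspa8, Hspa9a, Hspb2, Dnajc2, Dnajc5, Dnajc5b, Dnajc11, Dnajc12 and Dnajc18. They were not searched, so whether they hold an element is not known here. The element of 2 units was spelled GAANNTTC or TTCNNGAA and that of 3 units adds a further inverted unit after another 2 free bases. Every spelling was searched on both strands, and each 3-unit element also contains 2-unit elements. The 3-unit element was found for Hspd1, Hspe1 and Dnajb6, which is 3 of 46 genes (6.52%), against 0.662% of the 27025 genes with a window. The 2-unit element was found for 14 of 46 genes (30.4%), against 17% of all genes. A match is a description of these letters and does not show a bound site. The 4 windows below are shown because Hspd1 and Dnajb6 hold the 3-unit element and Hspb1 and Dnaja4 hold separate copies of the 2-unit element. They are written 5′ to 3′ on the strand of the gene, with the elements in capitals.
Hspd1, chr1:55087883-55088182, minus strand: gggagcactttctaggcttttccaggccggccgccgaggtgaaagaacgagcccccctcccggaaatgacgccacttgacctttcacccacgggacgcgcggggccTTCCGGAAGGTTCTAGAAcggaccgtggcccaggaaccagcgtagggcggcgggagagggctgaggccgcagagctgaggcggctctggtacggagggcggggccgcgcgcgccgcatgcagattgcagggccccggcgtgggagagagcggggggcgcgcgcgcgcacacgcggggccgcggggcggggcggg
Dnajb6, chr5:29735648-29735947, plus strand: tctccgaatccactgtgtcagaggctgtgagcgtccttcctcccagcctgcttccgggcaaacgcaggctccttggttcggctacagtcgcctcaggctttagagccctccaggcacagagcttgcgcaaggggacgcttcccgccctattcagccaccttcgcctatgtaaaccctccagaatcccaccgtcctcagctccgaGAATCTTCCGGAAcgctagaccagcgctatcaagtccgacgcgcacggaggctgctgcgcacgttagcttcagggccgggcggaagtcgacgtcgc
Hspb1, chr5:135887669-135887968, plus strand: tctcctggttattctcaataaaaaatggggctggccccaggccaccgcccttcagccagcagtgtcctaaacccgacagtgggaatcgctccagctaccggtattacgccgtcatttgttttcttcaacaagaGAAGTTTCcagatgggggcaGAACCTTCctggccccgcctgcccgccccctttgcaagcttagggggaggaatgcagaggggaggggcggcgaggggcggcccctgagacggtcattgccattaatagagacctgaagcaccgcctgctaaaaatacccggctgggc
Dnaja4, chr9:54699309-54699608, plus strand: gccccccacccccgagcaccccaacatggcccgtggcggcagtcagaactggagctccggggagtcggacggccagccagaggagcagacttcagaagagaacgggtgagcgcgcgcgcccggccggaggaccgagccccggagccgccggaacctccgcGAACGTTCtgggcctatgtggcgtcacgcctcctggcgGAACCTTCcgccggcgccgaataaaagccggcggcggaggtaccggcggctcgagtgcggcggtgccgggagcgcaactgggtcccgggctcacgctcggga
In the Hspd1 window the 3-unit elements start at positions -144 and -139 from the gene start and overlap each other. In the Dnajb6 window shown the element starts at position -46, in Hspb1 at -117 and -97, and in Dnaja4 at -90 and -52. Hspd1 and Hspe1, the subunits of the mitochondrial chaperonin, are transcribed away from each other. Their windows share 285 bases on opposite strands, and both 3-unit elements of Hspd1 are also those of Hspe1.

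**Figure D1:**
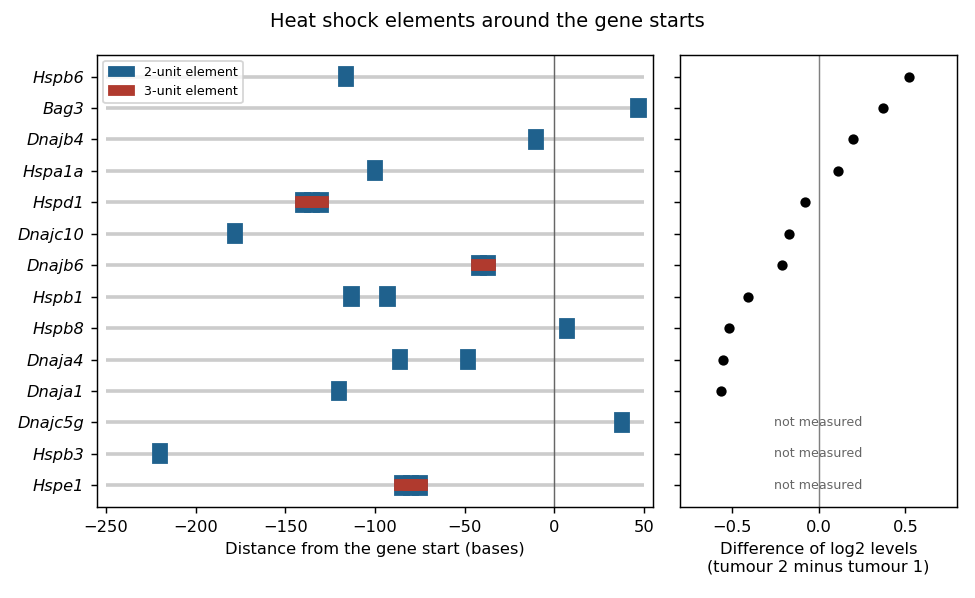
Heat shock elements in the promoter windows of the 14 genes that hold one (left, distance from the gene start in bases, blue for 2 units and red for 3 units) and the difference of the gene's log2 level, tumour 2 minus tumour 1 (right). Of the 11 measured genes, 4 lie to the right of 0 and 7 to the left, and 3 genes have no measured difference.

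A level is given here as log2 of the processed spot signal minus the 75th percentile of the array, so a level of 0 is the 75th percentile. A difference is the level in tumour 2 minus the level in tumour 1. On the main scale, used unless stated, the percentile is taken over the spots away from flags. On the scale of all spots it is taken over all unflagged spots, and the difference of a spot is lower than on the main scale. Levels of different probes depend on the probe and are not ranked. Array 1 had 1055 flagged spots that are not controls, against 43 on array 2, so flagged spots and those within 2 rows and columns of a flag on array 1, or of 1 of the 11 spots with high local background on array 2, were set aside. This left 31299 of 43379 spots (72.2%). Of all spots that are not controls, 66.1% on array 2 and 62.3% on array 1 were well above background. Near or on the flags, 38 spots of the heat shock and J-domain genes were well above background on array 2, of which 14 reached a 2-fold excess in tumour 2 and 0 in tumour 1. Away from flags, there were 85 such spots, of which 2 reached a 2-fold excess in tumour 2 and 1 in tumour 1. Repeat spots of the same probe had an SD of 0.12 on array 2 and 0.23 on array 1. Taken as independent, these give an SD of 0.26 for the difference of a single spot, which says nothing of the spread between tumours. The differences of paired repeat spots varied less, with an SD of 0.04 for a Dnajc11 probe and 0.19 for an Hspb7 probe. In bulk tissue, fewer cells of a type and less RNA per cell cannot be told apart.

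Away from flags, 46 of the 50 heat shock and J-domain genes with a usable spot were well above background in both tumours (92%), against 61.2% of the 22780 genes and transcripts with a usable spot. Hspa1l, a testis Hsp70, and the J-domain genes Dnajb7, Dnajb13 and Dnajc5g were well above background in neither tumour. The other 8 genes had no spot away from flags: Hsf1, Hsp90aa1, Hspe1, Hspb3, Dnajb8, Dnajc6, Dnajc7 and Dnajc15.

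The differences of the 46 measured genes ran from -0.62 to 0.61 with an SD of 0.36, against an SD of 0.55 over all 13945 measured genes. Their median size without regard to direction was 0.32, against 0.27 over all genes, so the SD was smaller while the typical difference was not. The median difference was 0.08, against -0.01 over all genes. Without regard to size, 28 of 46 were higher in tumour 2 (60.9%), against 48.4% of all genes, and 18 were lower in tumour 2, against 51.6%. This split depended on the scaling: on the authors' values with no scaling 21 of 46 (45.7%) were higher in tumour 2, with all genes shifted to a median of -0.16, and with normexp background correction fitted on all spots 20 of 46 (43.5%) were. Of the 46 genes, 20 had a difference smaller than the SD of 0.26 for a single spot, which was 43.5%, against 48.3% of all genes. That SD takes the 2 arrays as independent, whereas the paired repeat spots above varied less. It also makes no allowance for genes with several probes. A difference beyond 2 such SDs was seen for 7, which was 15.2%, against 24.5% of all genes.

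A 1.5-fold difference, 0.585 on the log2 scale, was reached by 4 of the 46 genes. Hspa12b, Hspb2 and Hspb7 were higher in tumour 2 by that much, which is 3 of 46, against 8.68% of all measured genes. Hspa12a was lower in tumour 2, which is 1 of 46, against 11.8%. In either direction this is 8.7% of the heat shock and J-domain genes, against 20.4% of all genes. With the brighter 50% of probes, 1 of 34 genes was that much higher and 1 that much lower. The share of all 7534 genes was then 11.0% in either direction. A 2-fold difference was reached by 0 of the 46, against 6.45% of all genes, 2.59% being higher and 3.87% lower in tumour 2. These counts were small and moved with the processing, as the values in the closing section show.

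**Figure D2:**
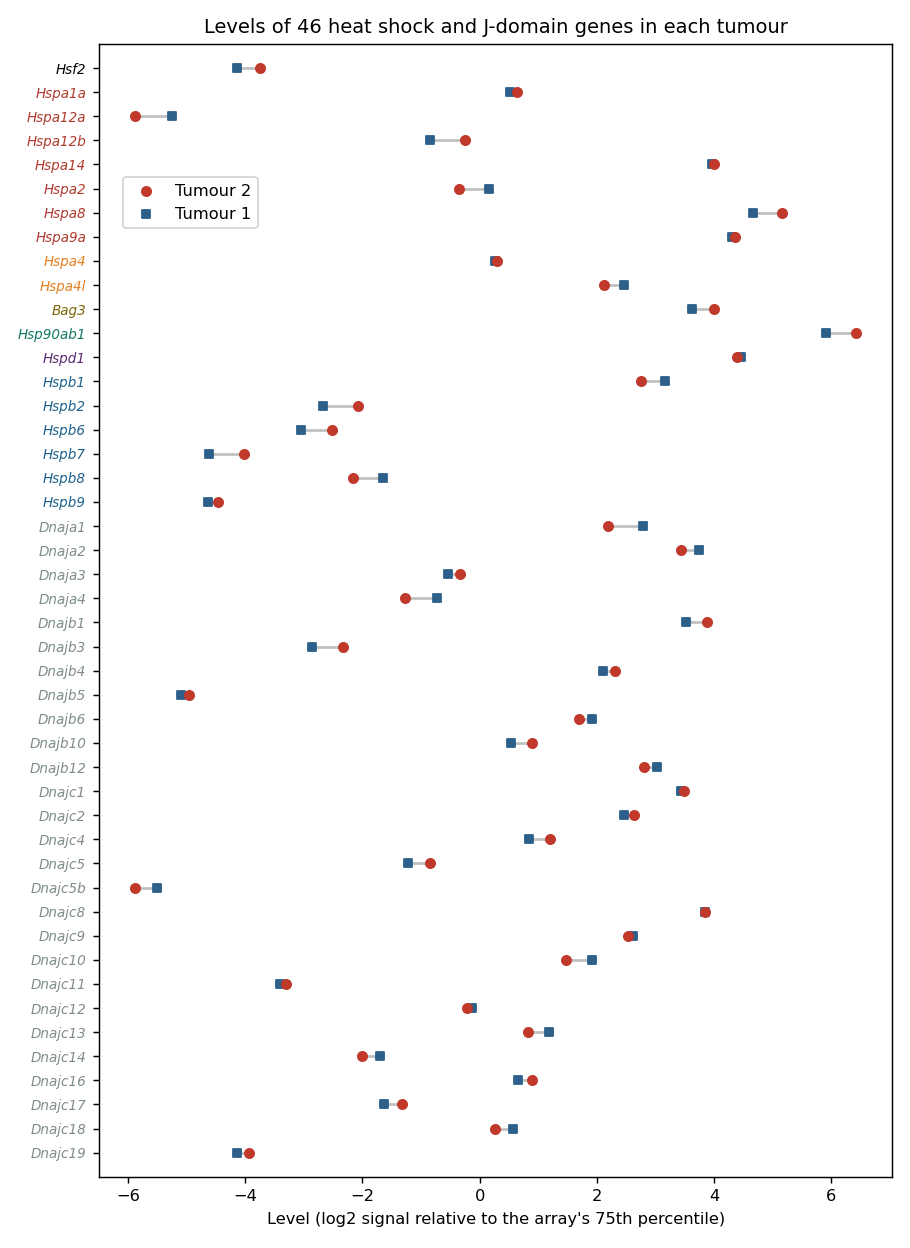
Level of the 46 genes measured away from flags in tumour 2 (red circles) and tumour 1 (blue squares), as log2 signal relative to the 75th percentile of the array. Names are coloured by family, and only the symbols on the same line can be compared. The pairs lie at most 0.62 apart.

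Of the heat shock factors, which turn on chaperone genes under stress, Hsf2 could be measured. Its level was -3.74 in tumour 2, against -4.14 in tumour 1. The difference was 0.39, with its 2 probes at 0.27 and 0.52, so both probes were higher in tumour 2. Hsf1, the main heat shock factor, had 3 spots, all on or near flags, with differences of -0.28, 1.16 and 0.56 on the scale of all spots. These spots did not go the same way and give no usable difference.

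The Hsp70 genes were split between the tumours. Of 8 genes, 7 were measured, 5 of them higher and 2 lower in tumour 2, with a median of 0.06 that fell to -0.08 on the unscaled values. The count turned there to 2 higher and 5 lower. It was 3 higher and 4 lower over all unflagged spots, with the brightest probe and under normexp fitted on all spots. Hspa8, the constitutive Hsc70 of the cytosol, had a level of 5.16 in tumour 2, against 4.66 in tumour 1, a 1.41-fold difference. Its other probe lay near a flag, with 6.73 in tumour 2, against 0.37 in tumour 1, and was not used. With that probe included the difference of Hspa8 was 3.23 on the scale of all spots.

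Hspa1a, the stress-inducible Hsp70, had a median difference of 0.11, but its 2 usable probes disagreed. The brighter probe had a level of 3.09 in tumour 2, against 3.70 in tumour 1, a difference of -0.61. The dimmer probe had -1.81 in tumour 2, against -2.65 in tumour 1, a difference of 0.84. No direction can be given for Hspa1a. Hspa1b is a nearly identical copy of this gene, so signal of both may be mixed.

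Hspa9a, the file's name for the mitochondrial Hsp70 Hspa9, had a level of 4.36 in tumour 2, against 4.30 in tumour 1, and its 2 probes differed by -0.15 and 0.28. Hspa14, an Hsp70 relative at the ribosome, had 4.0 in tumour 2, against 3.97 in tumour 1. Both genes were near 0 in their difference. Hspa2, best known from spermatogenesis, had -0.36 in tumour 2, against 0.16 in tumour 1, a difference of -0.52.

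The divergent relatives Hspa12a and Hspa12b differed by the most among the Hsp70 genes and in opposite directions. Hspa12b, known from endothelial cells, had a level of -0.24 in tumour 2, against -0.85 in tumour 1, a 1.52-fold difference on 1 probe. It was higher in tumour 2 in 14 of 14 other ways of processing and at least 1.5-fold so in 10. Endothelial markers were looked at beside it: of 5 markers 5 were measured and all were lower in tumour 2, with a median of -0.45. Their summed level was 2.10 times the 75th percentile in tumour 2, against 3.64 times in tumour 1. Emcn alone made up 1.45 of it in tumour 2, against 2.83 in tumour 1. Kdr, a receptor of endothelial growth factor, had a difference of -0.45, and Pecam1 one of only -0.03. With loess, over all unflagged spots and with 4 rows and columns around a flag left out, 1 of the 5 was higher in tumour 2. With the lower rows only, 1 of 4 measured was higher. Under normexp fitted on all spots 4 of the 5 were higher. The part of these markers in the Hspa12b difference was not tested.

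Hspa12a had a level of -5.87 in tumour 2, against -5.25 in tumour 1, a 1.54-fold difference on 1 of its 3 usable probes. Both levels were near the lowest level called well above background, which was -6.19 on array 2 and -5.78 on array 1. Another of its probes was well above background in tumour 2 only and was slightly higher there, at -5.74, against -5.81 in tumour 1. The gene was lower in tumour 2 in 12 of 13 other ways of processing, and at least 1.5-fold apart in 7.

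The Hsp110 genes, which exchange the nucleotide on Hsp70, were each covered by 4 probes. Hspa4l had levels of 3.40, 1.41, 2.81 and 0.55 in tumour 2, against 3.65, 1.76, 3.17 and 1.76 in tumour 1 on the same probes. All 4 probes were lower in tumour 2, by 0.25 to 1.21, and the median difference was -0.35. The last probe was 2.31-fold lower, while the others were at most 1.28-fold lower. Hspa4 had a median difference of 0.23, with probes from -0.36 to 0.63, of which 3 were higher in tumour 2 and 1 was lower. Hsph1, the other Hsp110 gene of the cytosol, is listed in the file as Hsp110 and so was not taken by name. Its 1 spot lay near a flag, with a difference of -0.45 on the scale of all spots and -0.25 on the main scale.

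Bag3, an exchange factor and autophagy adaptor, had a level of 4.0 in tumour 2, against 3.63 in tumour 1. The difference was 0.37, a 1.30-fold difference on the 1 probe away from flags. Its other probe, near a flag, differed by 2.00.

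Hsp90ab1, the constitutive Hsp90, had a level of 6.43 in tumour 2, against 5.91 in tumour 1, a 1.43-fold difference. Its difference lay between 0.32 and 0.53 in all other ways of processing except the normexp background correction fitted on all spots. Hsp90aa1, the stress-inducible Hsp90, had 1 spot, and that spot was flagged. Its level there was 7.02 in tumour 2, against 6.51 in tumour 1, a difference of 0.51 that is given as a description and is in no count. On the scale of all spots that difference was 0.31.

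Hspd1, the Hsp60 chaperonin, had a level of 4.38 in tumour 2, against 4.46 in tumour 1. Its 2 probes differed by -0.10 and -0.06, and the pair of levels lay within the spread of repeat spots. Hspe1, the Hsp10 lid of that chaperonin, had 1 spot near a flag with a difference of -0.60 on the scale of all spots and -0.40 on the main scale. That spot stood in a neighbourhood whose median difference was 0.22 on the scale of all spots.

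**Figure D3:**
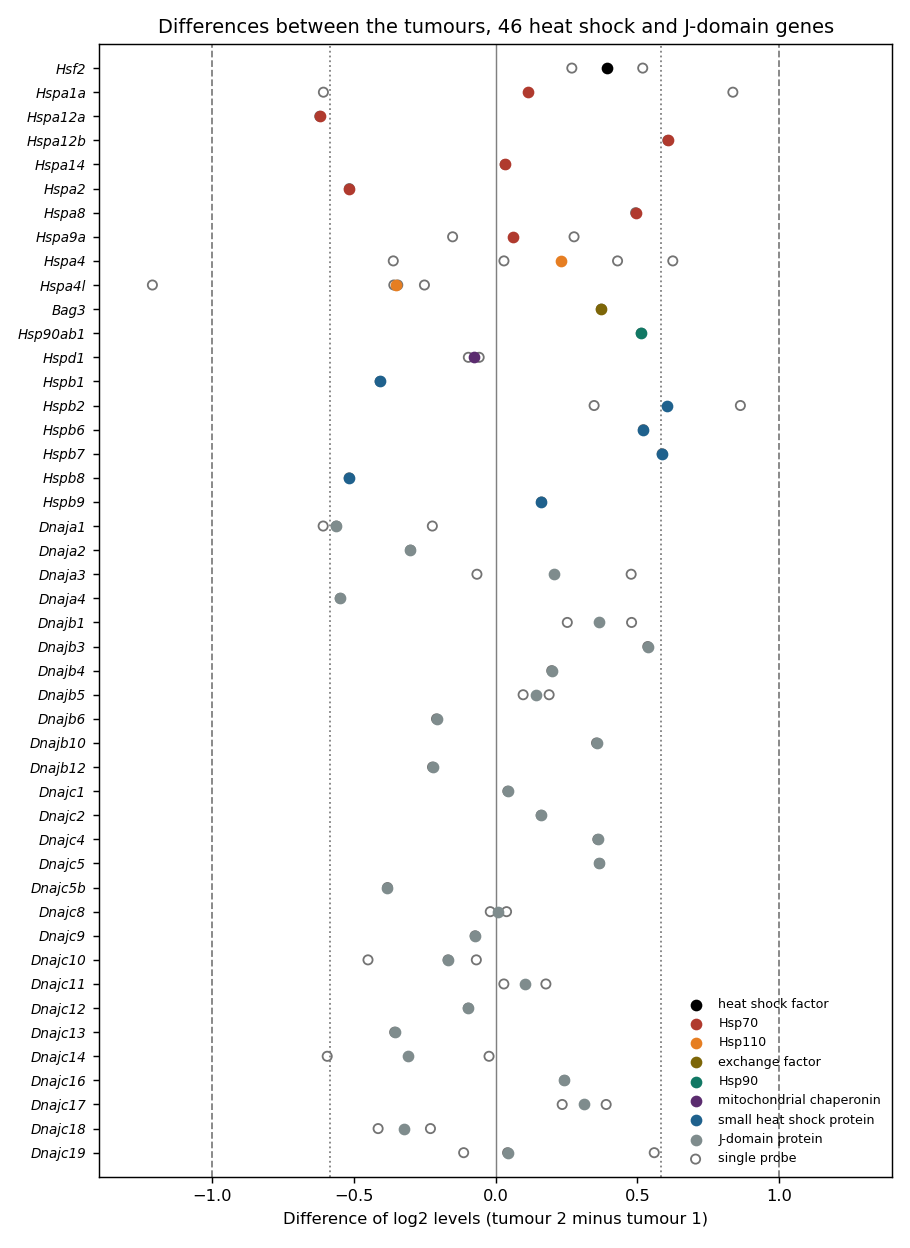
Difference of log2 levels, tumour 2 minus tumour 1, for the 46 genes measured away from flags (filled circles, coloured by family) and for their single probes (open circles). Dotted lines mark 1.5-fold and dashed lines 2-fold. Genes lie between -0.62 and 0.61, and 1 probe of Hspa4l lies beyond 2-fold at -1.21.

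Small heat shock proteins had the largest median among the families with more than 2 measured genes. Of 7 genes 6 were measured, 4 of them higher and 2 lower in tumour 2, with a median of 0.34, which was 0.20 on the unscaled values and -0.03 over the 2 genes left when the brighter 50% of probes were used. The genes higher in tumour 2 were Hspb2, Hspb7, Hspb6 and Hspb9, and those lower were Hspb8 and Hspb1.

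Hspb2, a small heat shock protein of heart and skeletal muscle, had levels of -4.54 and 0.40 on its 2 probes in tumour 2, against -5.40 and 0.05 in tumour 1. Both probes were higher in tumour 2, by 0.86 and 0.35, and the gene was 1.52-fold higher. It was higher in tumour 2 in 13 of 13 other ways of processing, and at least 1.5-fold so in 8. Hspb3, its partner in muscle, had 1 spot near a flag with a difference of 0.03 on the scale of all spots and 0.23 on the main scale.

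Hspb7, a small heat shock protein of heart and skeletal muscle, was the best measured of the family because 1 of its probes was printed 10 times. Away from flags, 5 spots lay between -4.19 and -3.96 in tumour 2, against -4.76 and -4.30 in tumour 1. The ranges did not overlap, and 5 of 5 spots were higher in tumour 2, by 0.59 ± 0.19 on average (SD over 5 spots of the same array pair), a 1.5-fold difference. These spots are repeats within an array and not further tumours. Over all 10 spots, tumour 2 ran from -4.19 to -3.72, against -6.54 to -4.30 in tumour 1, and 10 of 10 were well above background in tumour 2, against 7 of 10 in tumour 1. A second Hspb7 probe was well above background in tumour 2 only, at -5.38, against -5.92 in tumour 1.

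Dnajc11, a J-domain protein of mitochondria, also had a probe printed 10 times and shows how little a difference can be and still be the same in every repeat. Away from flags, 7 spots lay between -1.62 and -1.42 in tumour 2, against -1.81 and -1.55 in tumour 1. The difference was 0.18 ± 0.04 (SD over 7 spots), higher in tumour 2 in 7 of 7. Its second probe differed by 0.03, and on the unscaled values the gene had a difference of -0.04, so its direction rests on the scaling.

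**Figure D4:**
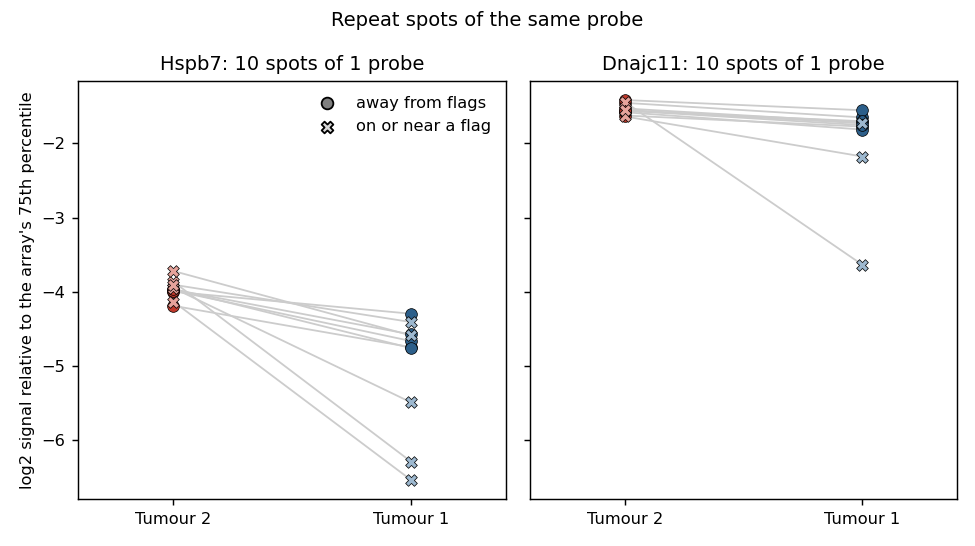
Level of each of the 10 repeat spots of 1 Hspb7 probe (left) and 1 Dnajc11 probe (right) in tumour 2 and tumour 1, as log2 signal relative to the 75th percentile of the array. Lines join the same spot on both arrays, circles lie away from flags and crosses on or near a flag. The lowest values, down to -6.54 for Hspb7 and -3.64 for Dnajc11, are crosses in tumour 1.

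Hspb6, a small heat shock protein known to relax smooth muscle, had a level of -2.52 in tumour 2, against -3.04 in tumour 1, a difference of 0.52. Hspb9, known from testis, had -4.46 in tumour 2, against -4.63 in tumour 1. Hspb8, the partner of Bag3, had -2.16 in tumour 2, against -1.64 in tumour 1, a difference of -0.52. Hspb1, known as Hsp27 and a widely expressed stress protein, had 2.75 in tumour 2, against 3.16 in tumour 1, a difference of -0.41 on the probe above background. Its second probe was not well above background in either tumour. Cryab, the small heat shock protein alpha B-crystallin of lens and muscle, is outside the naming rule and had -0.15 in tumour 2, against -0.64 in tumour 1.

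Muscle markers were looked at beside these genes. Of 10 muscle markers 7 were measured, 5 higher and 2 lower in tumour 2, with a median of 0.25, and their summed level was 9.35 times the 75th percentile in tumour 2, against 4.97 times in tumour 1. Most of that sum was Myh8, with 7.96 in tumour 2, against 4.06 in tumour 1. Chrna1 and Actc1 had no spot away from flags and are not in the sum. On the scale of all spots, Chrna1 had a level of 4.81 in tumour 2, against 5.29 in tumour 1. Actc1 had -2.37 in tumour 2, against -3.18 in tumour 1. The sum thus leaves out Chrna1, a bright marker that went the other way. Desmin (Des) was 2.36-fold higher, with -1.17 in tumour 2, against -2.41 in tumour 1. The embryonic and perinatal myosins Myh3 and Myh8 were 2.10-fold and 1.96-fold higher. The myogenic factor Myf6 was lower, with -3.02 in tumour 2, against -2.54 in tumour 1. The myogenic factor Myod1 had -5.59 in tumour 2, against -5.24 in tumour 1, near the lowest level called, and Myf5 was well above background in neither tumour. The part of these markers in the small heat shock protein differences was not tested.

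Markers of other cell types also differed between the tumours. Of 5 fibroblast markers 4 were measured and all were lower in tumour 2, with a median of -0.78 and a summed level of 8.12 in tumour 2, against 12.4 in tumour 1. Under normexp fitted on all spots 2 of these 4 were higher and 2 lower. Of the 4 erythroid markers on the array 3 were measured and all were higher, with a median of 0.98 and a summed level of 27.3 in tumour 2, against 14.7 in tumour 1. Nearly all of that sum was the globin Hba-a1, with 26.3 in tumour 2, against 14.2 in tumour 1. Of 5 keratinocyte markers 2 were measured: the keratins Krt5 and Krt14 were 11.7-fold and 12.5-fold higher in tumour 2. Away from flags, Krt10 was well above background in tumour 2 only, Krt1 in tumour 1 only and Trp63 in neither, and over all unflagged spots Krt10 had a difference of -0.07. Macrophage markers were split, with 1 higher and 2 lower of 3 measured, and 1 of 5 T cell markers was measured, at 0.24. Their part in the differences of the heat shock genes was not tested. Control transcripts that are added to the RNA were not level after this scaling: 7 of the 8 well above background were higher on array 2, with differences from -1.09 to 0.98 and a median of 0.87, so every difference given here is relative to the 75th percentile of the tumour RNA and not to an added standard.

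J-domain proteins, the co-chaperones that select substrates for Hsp70, made up 34 of the 58 genes, and 27 of them were measured. Of these, 15 were higher and 12 lower in tumour 2, with a median of 0.04 and a range of -0.56 to 0.54. The balance turned on the unscaled values, where 11 were higher and 16 lower with a median of -0.10.

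The Dnaja genes, which are closest in build to bacterial DnaJ, had the lowest median, -0.42, with 1 of 4 higher and 3 lower in tumour 2. The count was the same with every scaling tried, apart from normexp fitted on all spots, which gave 2 higher and 2 lower. It also moved with the choice of probes. With no detection filter and with another detection call 2 were higher and 2 lower, and the median was -0.05. With the brightest probe all 4 were lower, with a median of -0.26. Dnaja1 had levels of 2.18, 4.82 and -0.33 on its 3 probes in tumour 2, against 2.79, 5.05 and 0.23 in tumour 1. All 3 probes were lower in tumour 2, by 0.22 to 0.61, with a median difference of -0.56. Dnaja2 had 3.44 in tumour 2, against 3.74 in tumour 1. Dnaja4 had -1.28 in tumour 2, against -0.73 in tumour 1, a difference of -0.55, on 1 probe. Its second probe was well above background in tumour 2 only and went the other way, at -5.14, against -6.21 in tumour 1. With no filter on dim probes that probe counted too, and the difference of Dnaja4 was 0.26. Dnaja3, the mitochondrial member, had a median difference of 0.21, with probes at 0.48 and -0.07 that did not agree.

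Of 10 Dnajb genes 7 were measured, 5 higher and 2 lower in tumour 2, with a median of 0.20. Dnajb1, the classical heat-induced Hsp40, had levels of 5.09 and 2.68 on its 2 probes in tumour 2, against 4.84 and 2.20 in tumour 1, and both probes were higher in tumour 2, with a median difference of 0.37. Dnajb3, known from testis, had -2.32 in tumour 2, against -2.86 in tumour 1, the largest difference of the J-domain genes towards tumour 2, at 0.54. Dnajb6, which keeps aggregation-prone proteins soluble, had 1.70 in tumour 2, against 1.91 in tumour 1. The file's Dnajb10, now called Dnajb2, had 0.90 in tumour 2, against 0.54 in tumour 1. Dnajb4, Dnajb5 and Dnajb12 differed by 0.20, 0.14 and -0.22.

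Of 20 Dnajc genes 16 were measured, 9 higher and 7 lower in tumour 2, all within -0.38 and 0.37 and with a median of 0.03. Among those of known role, Dnajc2, a partner of Hsp70 at the ribosome, had 2.63 in tumour 2, against 2.47 in tumour 1, and its second probe, near a flag, differed by 7.19. Dnajc5, the cysteine string protein of secretory vesicles, had -0.85 in tumour 2, against -1.21 in tumour 1. Dnajc13, of endosomes, had 0.83 in tumour 2, against 1.18 in tumour 1. Dnajc19, of the mitochondrial import motor, had a median difference of 0.04, with 3 probes from -0.11 to 0.56. Dnajc8, a nuclear protein linked to splicing, had 3.85 in tumour 2, against 3.84 in tumour 1. Dnajc10, an ER disulphide reductase, had 3 probes that were all lower in tumour 2, by 0.07 to 0.45.

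Where a gene had several usable probes, these often disagreed. Of 18 such heat shock and J-domain genes, 6 had probes of opposite sign (33.3%), against 41.7% of 3440 genes on the array, and 4 had probes at least 1.5-fold apart (22.2%), against 29.3%. The 6 with opposite signs were Hspa1a, Hspa4, Hspa9a, Dnaja3, Dnajc8 and Dnajc19. The genes whose several probes all went the same way include Hsf2, Hspb2, Hspa4l, Dnaja1, Dnajb1 and Hspd1.

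Genes with and without a promoter element were compared as a description. Of the genes with the 2-unit element 11 were measured, 4 higher and 7 lower in tumour 2, with a median of -0.17. The 4 include Hspa1a, for which no direction can be given. Of the genes with a window and no such element 25 were measured, 17 higher and 8 lower, with a median of 0.14. The 12 genes with no window, Hspa8 and Hsp90ab1 among them, are in neither group. The genes with the 3-unit element that could be measured, Hspd1 and Dnajb6, had differences of -0.08 and -0.21. The groups overlap widely, from -0.56 to 0.52 with the element and from -0.62 to 0.61 without.

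Co-chaperones of Hsp70 and Hsp90 outside the naming rule were taken from a list. Of 24 genes 20 were measured, 12 higher and 8 lower in tumour 2, with a median of 0.17, and 4 were at least 1.5-fold higher and 1 at least 1.5-fold lower, together 25% of the list, against 20.4% of all genes. The median size of their differences was 0.25. Fkbp5, a steroid receptor co-chaperone, had -0.28 in tumour 2, against -1.53 in tumour 1, a 2.38-fold difference that was 0.34 on the log2 scale over all unflagged spots. Bag6, Bag2 and the phosphatase Ppp5c were higher by 0.94, 0.66 and 0.61, and Cdc37l1, a relative of the kinase co-chaperone Cdc37, was lower, with 0.36 in tumour 2, against 0.97 in tumour 1. Stip1, which links Hsp70 to Hsp90, differed by 0.46, and Cdc37 and the Hsp90 activator Ahsa1 by 0.51 and 0.14.

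Of 14 subunits of the cytosolic chaperonin and of prefoldin, which fold actin and tubulin, 10 were measured, 5 higher and 5 lower in tumour 2, with a median of -0.07. Cct4 was 1.83-fold lower on 1 dim probe, with -4.53 in tumour 2, against -3.66 in tumour 1. Over all unflagged spots its level was much higher, with -0.06 in tumour 2, against 0.48 in tumour 1. The difference there was -0.55, so the 1.83-fold value rests on that dim probe. Of 18 regulators of heat shock factors and other heat shock genes 15 were measured, 11 higher and 4 lower, with a median of 0.17, which was 0.03 on the unscaled values. Hsf4, a heat shock factor of the lens, was 1.79-fold higher and Trap1, the mitochondrial Hsp90, was 1.53-fold higher. Of 12 relatives in the endoplasmic reticulum 9 were measured, 6 higher and 3 lower, with a median of 0.09, which was -0.05 on the unscaled values. None of these 9 was 1.5-fold apart in either direction. Hspa5, the ER Hsp70, and Hsp90b1, the ER Hsp90, had differences of 0.15 and -0.03.

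**Figure D5:**
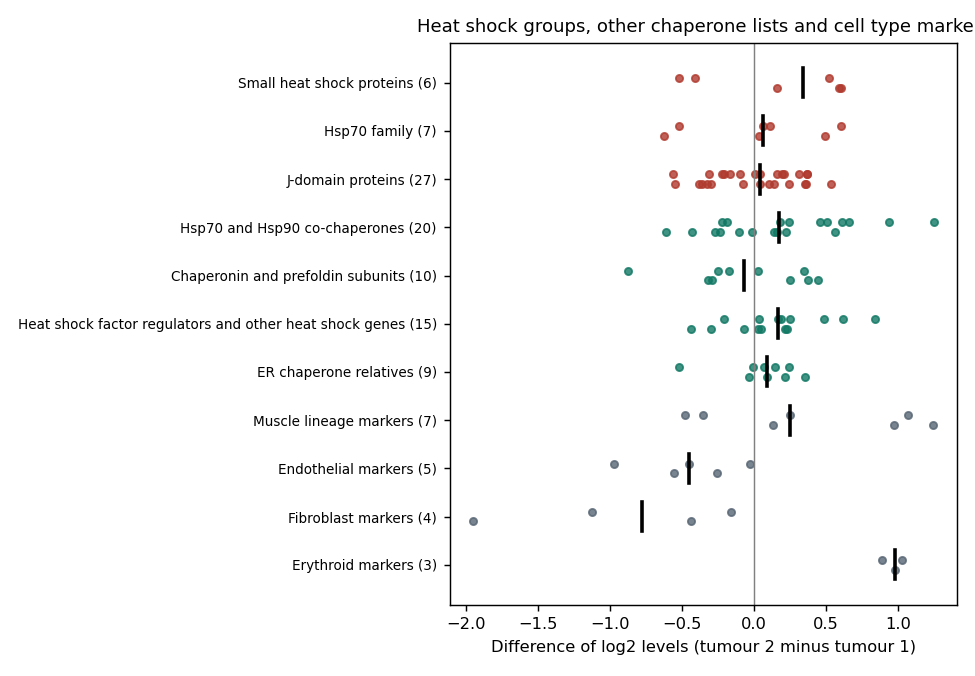
Difference of log2 levels, tumour 2 minus tumour 1, for families of heat shock genes (red), other chaperone lists (green) and cell type markers (grey), with the number of measured genes in brackets. Points are genes and black bars are medians. The small heat shock proteins have a median of 0.34 and the J-domain proteins one of 0.04, while endothelial and fibroblast markers all lie below 0 and erythroid markers all above it.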

How the data were processed

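The arrays are Agilent single-colour (Cy3) mouse arrays, 1 for each tumour, on 45018 spots each. Per the labels' protocols, Trizol was used for RNA extraction and the Quick Amp kit for labelling. The authors' intensity values were written by Agilent Feature Extraction. The file headers give version 9.1.3.1, while the submitters' processing notes give version 8. The deposited value table equals the processed signal intensity at all 90036 values, linear and not centred, with column medians of 67.5 for tumour 2 and 63.3 for tumour 1.

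The log2 of the processed signal minus the 75th percentile of each array (901.9 on array 2 and 995.0 on array 1) was used. Spots on or near flags were left out, and a probe was the mean of its spots. It counted as measured when at least 50% of them were well above background in each tumour. A gene's difference is the median over its measured probes, so it can differ from the gap between median levels. Of the spots that are not controls, 57.4% received a RefSeq symbol, and others kept the name in the file. No heat shock or J-domain spot was saturated (0). With 1 tumour on each side no test was run. Precision is limited by the number of arrays.

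The genes, lists and the rule on flags were chosen with earlier results of these data known. All genes of the naming rule may be named, and those at least 1.5-fold apart, with several probes or of the main families are given with both values. From other lists, the first 4 genes and those at least 1.5-fold apart may be named. Alternatives were other sets of spots, subtraction of the local block median, normexp (offset 50), loess (span 0.3) and quantile scaling, the authors' unscaled values, other filters and detection calls, and the brightest probe. Marker sums add linear levels over the measured markers. Software was Python 3.11.15, R 4.3.3 and limma 3.58.1, and the procedure was tested on simulated data.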

Additional observations from a re-analysis of the deposited data

How the results depend on the processing

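No paired analysis was possible because there is 1 group of 2 tumours and no result comes from a test. Of 608 single-gene differences under the 14 alternatives, 62 had the opposite sign, 20 of them under normexp fitted on all spots. Among the 4 genes at least 1.5-fold apart 1 changed direction: Hspa12a became 2.91 under that normexp. Of the 46 genes, 30 kept their direction in every alternative apart from that normexp. Normexp fitted on all spots, with its 11 spots of high background on array 2, shifted all genes to a median of 0.68. The 46 genes then had a median of -0.20, with 43.5% higher in tumour 2. At 1.5-fold 16 were higher and 15 lower, against 71.2% of all genes in either direction. At 2-fold 18 were apart, against 48.6%. Fitted without those spots it gave 0 higher and 0 lower at 1.5-fold, against 10.4% of all genes. All unflagged spots gave 5 higher and 6 lower, against 27.8%, and 2 at least 2-fold apart, against 11.6%. There 46.2% were higher in tumour 2, and all genes lay at -0.18. The unscaled values gave 0 higher and 5 lower, against 22.8%. The brighter 50% of probes gave 1 higher and 1 lower, against 11.0%, and 50% of genes were higher in tumour 2. Genes at least 1.5-fold lower in tumour 2 were 2 with the brightest probe and with the lower rows, 3 with no filter and with the other detection call, and 0 after local block subtraction and after loess. In these settings 19.9% to 25.6% of all genes were at least 1.5-fold apart in either direction. The cause of the changes was not tested. The measured count was 46 with either tumour left out. It could not change, because away from flags none of the heat shock and J-domain genes was well above background in 1 tumour only. In the alternatives the count was 31 to 52. Other medians lay between -0.06 and 0.15. Spots near flags on array 1 and signals near background limit what can be read for dim genes.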

Other observations

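Several of the heat shock and J-domain genes are known mainly from testis, and some of these were measured in both tumours. Hspa2, Hspb9, Dnajb3 and Dnajc5b were well above background in both tumours, with differences of -0.52, 0.16, 0.54 and -0.38. Hspa1l, Dnajb13 and Dnajc5g were well above background in neither. With the other detection call 8 Hsp70 genes and 17 Dnajc genes were measured, which adds Hspa1l and Dnajc5g. Of 6 germ cell markers 4 were measured, at low levels and with a summed level of 0.23 in tumour 2, against 0.22 in tumour 1. The germ cell helicase Ddx4 was well above background in neither tumour.

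Genes whose proteins are known to work as partners were set side by side after their values were seen. Hspb8 and Bag3, which clear damaged proteins together, had differences of -0.52 and 0.37. Hspa14 and Dnajc2, which form a complex at the ribosome, had differences of 0.03 and 0.16. Hspa8 and its co-chaperones Dnaja1 and Dnajb1 had differences of 0.49, -0.56 and 0.37.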
